A study of Mus musculus with 12 samples.

Results

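The histone methyltransferase genes examined here are the 6 that encode enzymes of the H3K9 families, Suv39h1, Suv39h2, Setdb1, Setdb2, Ehmt1 and Ehmt2, and the 2 that encode the enzymes adding further methyl groups to singly methylated H4K20, Kmt5b and Kmt5c. The rule that picks them is by name and uses no measured value, although earlier results of these data were known when it was set. All 8 were found in the RefSeq table of mouse assembly GRCm38.p6, among 21523 protein-coding genes on chromosomes 1 to 19 and X. Their bodies were set against a single list of 28210 H4K20me3 domains, which held 8 domains inside these genes.

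The list was deposited with H4K20me3 ChIP-seq of the mouse embryonic stem cell line dTKO, and the libraries it was called on are not stated. In all 12 libraries the labels give Suv39h1 as fl/fl, Suv39h2 as -/- and Setdb1 as fl/fl, so every library shares the loss of Suv39h2, and the 5 other genes do not appear in the genotype. Cells were collected 0, 12, 24 and 48 h after auxin (100 μg/ml) and dTAG13 (0.5 μM) were put into the medium. Each of the 4 times has 3 replicates, and 0 h is the baseline. Auxin and dTAG13 are small molecules that send proteins carrying a matching degron tag to the proteasome; the labels do not say which protein carries which tag. The list names no sample and holds only chromosome, start and end. No change over time, no replicate error and no library depth can therefore be read from it, and neither the depletion of the enzymes nor the identity of the cells could be checked. Every value below is a description of positions in this list, with no test.

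H3K9me3 and H4K20me3 mark constitutive heterochromatin, and in the textbook order the marks are laid down in sequence. SUV39H1 and SUV39H2 place H3K9me3 mainly at pericentromeric repeats, while SETDB1, brought by KAP1 and KRAB zinc finger proteins, places it at retrotransposons. HP1 proteins bind H3K9me3 and bring in KMT5B and KMT5C (also called SUV4-20H1 and SUV4-20H2), which add further methyl groups to H4K20 that already carries the first. EHMT1 (GLP) and EHMT2 (G9a) form a complex that places H3K9me1 and H3K9me2 in euchromatin, and SETDB2 is a SET-domain protein related to SETDB1.

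H4K20me3 domains lay in only Suv39h1 and Setdb1 of the 8 genes (25%). Across all protein-coding genes, 14.1% of bodies shared at least 1 base with a domain, 12.9% of those of 10 to 100 kb did, and 18.3% of those on X did. Suv39h1 held 2 domains and Setdb1 held 6, while Suv39h2, Setdb2, Ehmt1, Ehmt2, Kmt5b and Kmt5c held 0. The 2 genes with domains are the 2 that the genotype gives as floxed. The null gene and the 5 genes outside the genotype had none. Whether the altered alleles have a part in these calls was not tested, and no input control was used here.

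**Figure D1:**
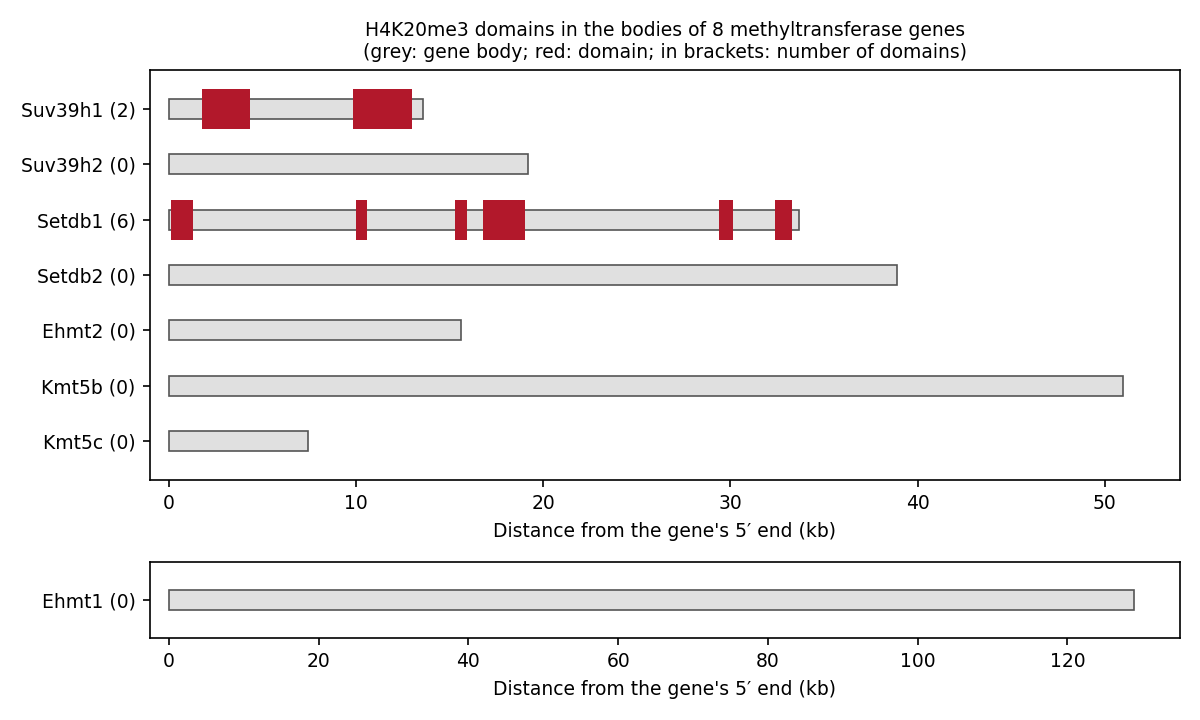
Gene bodies of the 8 methyltransferase genes drawn to scale from the 5′ end (x axis, kb), with each H4K20me3 domain as a red block; Ehmt1 has its own axis because it is 129 kb long. Suv39h1 carries 2 blocks and Setdb1 carries 6 that reach from its first to its last kilobase, and the other 6 bodies are empty.

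The sequences around the annotated starts of the 2 genes with domains are shown because the domains came close to these starts without reaching them. Each is 300 bases from RefSeq GRCm38.p6, read 5′ to 3′ on the minus strand, with the 50 bases after the annotated start in capitals. Suv39h1 has 2 annotated starts, with windows at chrX:8074711-8075010 (start 1) and chrX:8074312-8074611 (start 2), and Setdb1 has 1, with its window at chr3:95357153-95357452.
Suv39h1 start 1: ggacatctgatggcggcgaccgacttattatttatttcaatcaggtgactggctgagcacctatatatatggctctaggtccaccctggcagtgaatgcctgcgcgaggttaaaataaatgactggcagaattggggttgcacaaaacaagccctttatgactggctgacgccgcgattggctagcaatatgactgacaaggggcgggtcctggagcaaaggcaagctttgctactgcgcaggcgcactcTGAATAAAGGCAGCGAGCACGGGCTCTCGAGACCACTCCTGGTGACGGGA
Suv39h1 start 2: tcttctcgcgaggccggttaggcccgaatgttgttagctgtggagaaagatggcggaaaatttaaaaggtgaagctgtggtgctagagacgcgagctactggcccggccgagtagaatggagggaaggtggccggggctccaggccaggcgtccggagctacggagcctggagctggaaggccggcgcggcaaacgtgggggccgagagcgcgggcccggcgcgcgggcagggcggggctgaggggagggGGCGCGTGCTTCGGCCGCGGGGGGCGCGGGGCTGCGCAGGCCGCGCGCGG
Setdb1: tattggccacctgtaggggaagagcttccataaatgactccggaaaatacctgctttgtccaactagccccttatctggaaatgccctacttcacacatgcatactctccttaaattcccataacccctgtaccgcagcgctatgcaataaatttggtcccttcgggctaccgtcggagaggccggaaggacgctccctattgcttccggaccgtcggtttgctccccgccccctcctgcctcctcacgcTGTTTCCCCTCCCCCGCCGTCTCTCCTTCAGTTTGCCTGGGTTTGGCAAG

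None of the 11 windows of this kind that belong to the 8 genes met a domain, and 291 of all 21045 protein-coding windows did. Counted by gene, 1.59% of 17274 protein-coding genes with a window had one that met a domain. In Setdb1 the nearest domain began 52 bases beyond the downstream edge of the window printed above. That is less than a step of the 150-base grid on which domain edges lie, so the list does not resolve whether the mark reaches this window. In Suv39h1 the nearest domain was 1.31 kb beyond the window of start 2 and 1.71 kb beyond that of start 1. The window of Suv39h2 was 53.2 kb from any domain, that of Ehmt1 285 kb and that of Kmt5b, at its first start, 6.52 kb.

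All 11 windows held more CG dinucleotides than the median protein-coding window. The letters CG occurred 15 times in Suv39h1 start 1, 37 times in start 2 and 15 times in Setdb1. Over all 21045 protein-coding windows the median was 13, with quartiles of 4 and 25, and over the 291 windows that met a domain it was 8. Among the 8 genes the count ran from 15 to 40, the highest in the second window of Ehmt2. The letters GGGCGG, searched on both strands, were in 9 of the 11 windows, all but those of Setdb2 and Kmt5c, and in 46.7% of all protein-coding windows. The letters CCAAT, also on both strands, were in 4 of the 11, namely Suv39h1 start 1, Setdb1, Setdb2 and Kmt5c, and in 38.5% of all. GGGCGG and CCAAT are different motifs, and a match of either was counted whether or not it touched the other. These matches describe the letters only.

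Suv39h1, the X-linked gene for the enzyme that places H3K9me3 at pericentromeric repeats, had 41.9% of its 13.6 kb body in domains (X, 8061171 to 8074760, minus strand). The first domain from the 5′ end lay at chrX:8070451-8073000 and was 2.55 kb wide. It began 1.76 kb inside the gene and ended 4.31 kb inside it. The second, at chrX:8061751-8064900, was 3.15 kb wide, began 9.86 kb inside the gene and stopped 0.58 kb short of the 3′ end. Between the 2 domains were 5.55 kb without a call, and both lay wholly inside the body, as all domains did in 82.9% of the 3044 protein-coding genes with a domain. Exon coordinates were not used here, so the blocks are placed by distance from the gene's ends alone.

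Few protein-coding genes of the length of Suv39h1 held this much domain sequence. Of 2216 others within 20% of its length, 5.60% met a domain, 10 held 2 or more and 20 were covered over an equal or larger share. Of all protein-coding genes, 4.71% had at least 2 domains and 0.915% were covered over an equal or larger share of their body. Among those of 10 to 100 kb the shares were 2.27% and 0.63%.

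The domains of Suv39h1 stood alone in their stretch of X. The nearest domain upstream was 249 kb away, at chrX:8323501-8326200, and the nearest downstream was 627 kb away, at chrX:7430551-7433700. The 890 kb between these outer domains wholly contained 34 protein-coding genes, and the only 2 domains in the interval were those in Suv39h1. The median of the 28157 gaps between neighbouring domains on chromosomes 1 to 19 and X was 39.1 kb. The 890 kb interval takes in several gaps, so the 2 lengths are not like measures. The adjacent genes, Was, the Wiskott-Aldrich syndrome gene 6.71 kb upstream, and Glod5, 42.7 kb downstream, had 0 domains. Of the 3044 protein-coding genes with a domain, 161 (5.29%) had all their domains inside the body and no other within 200 kb of either end. Of these, 33 had at least 2 domains and 6 lay on X. The X-linked genes with at least 2 were Suv39h1 and Bhlhb9, which was named after its value was seen.

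Suv39h2, the paralog of Suv39h1 that is null in this line, had no domain in its 19.2 kb body (chromosome 2, 3455815 to 3474986, minus strand). Its nearest domains were 53.5 kb upstream (chr2:3528451-3530700, 2.25 kb wide) and 72.9 kb downstream (chr2:3381601-3382950, 1.35 kb wide). Among protein-coding genes within 20% of its length, 7.63% met a domain. Of the 2251 that did not, 46.8% had a domain nearer than Suv39h2 did, so its distance was close to the middle of the range. Dclre1c, the Artemis nuclease gene, shares 18397 bases with the annotated body of Suv39h2 and had 0 domains too.

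Setdb1, the gene for the KAP1-associated H3K9 methyltransferase, had 18.7% of its 33.7 kb body in 6 separate short domains (chromosome 3, 95323525 to 95357202, minus strand). From the 5′ end the first domain, at chr3:95355901-95357100, was 1.2 kb wide and began 102 bases after the annotated start. The second, at chr3:95346601-95347200, was 0.6 kb wide and began 10.0 kb inside the gene. The next, at chr3:95341351-95341950, was also 0.6 kb wide and began 15.3 kb inside. After 0.9 kb without a call came the widest, 2.25 kb, at chr3:95338201-95340450, which began 16.8 kb inside. These 2 neighbours lie near the middle of the gene. The fifth domain, at chr3:95327101-95327850, was 0.75 kb wide and began 29.4 kb inside. The last, at chr3:95323951-95324850, was 0.9 kb wide and stopped 426 bases short of the 3′ end.

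The 6 domains of Setdb1 thus spanned 98.4% of the gene, from near its start to near its end, with 27.4 kb of the body between and around them uncovered. The gaps between them ran from 0.9 to 10.3 kb. Of 2415 protein-coding genes with a domain and a known strand, 4.35% had domain edges within 1 kb of both ends of the body, as Setdb1 did. In Suv39h1 only the 3′ end had a domain within 1 kb, which was the case for 8.61% of those genes. All 6 domains lay wholly inside the body, which was so in 96.2% of the 156 protein-coding genes with at least 6 domains. The last did not reach Cers2, a ceramide synthase gene that shares 75 bases with the 3′ end of Setdb1 and had 0 domains.

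No other protein-coding gene of 10 to 100 kb held as many domains as Setdb1. Of 11422 genes in that range, 9950 had 0 domains, 1213 had 1, 200 had 2, 43 had 3, 11 had 4, 4 had 5, and Setdb1 alone had 6 (0.00876%). Over all lengths 156 protein-coding genes (0.725%) had 6 or more, and their median length was 734 kb. The next shortest of these after Setdb1 was Rgs20, a regulator of G-protein signalling, at 161 kb with 8 domains. By covered share Setdb1 stood lower: 2.13% of all protein-coding genes, and 2.43% of those of 10 to 100 kb, were covered over an equal or larger share. A covered share of 50% or more, found in 0.739% of all protein-coding genes, was reached by none of the 8. Setdb1 had 1.78 domains per 10 kb of body, and the highest value among the other protein-coding genes with at least 6 domains was 0.498. Those genes are all 161 kb or longer, so these densities compare unlike lengths. Rgs20 was named after its value was seen.

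The count rests on narrow calls. When domains closer than 5 kb were merged, Setdb1 had 3, and 40 of the 11422 genes (0.35%) had as many. With domains of 1 kb or wider only, it had 2, a number that 1.87% of these genes reached. Without the domains below the median width of the list, it had 0.

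**Figure D2:**
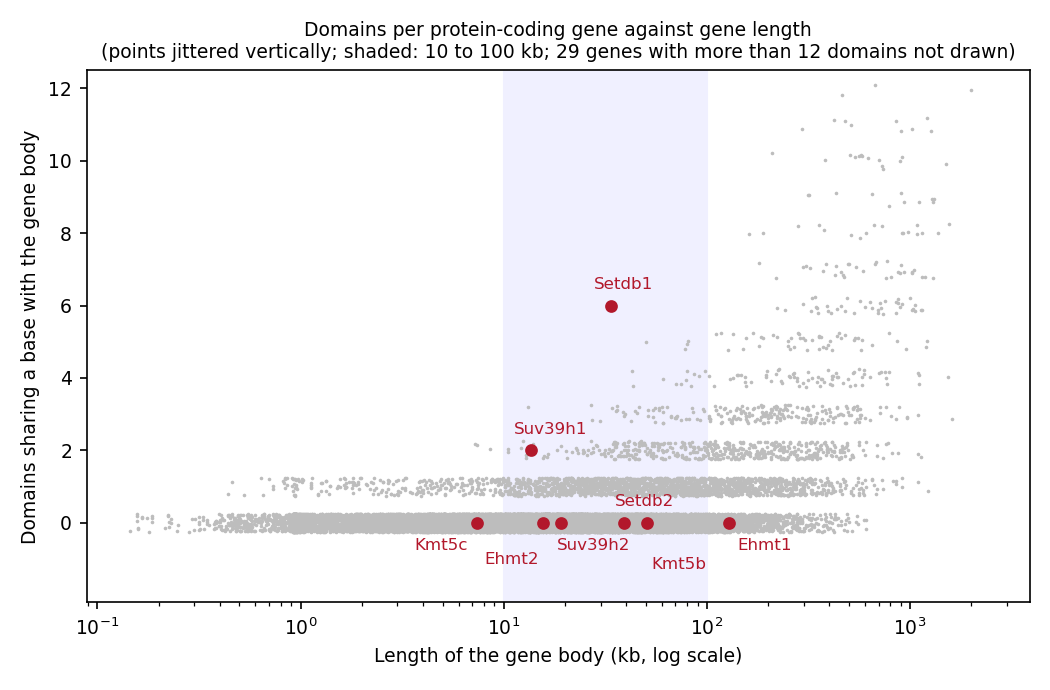
Number of H4K20me3 domains per protein-coding gene (y axis, up to 12; 29 genes with more are not drawn) against the length of the gene body in kb (x axis, log scale), with the 8 methyltransferase genes in red and the others drawn in grey. Setdb1, at 33.7 kb and 6 domains, has no other gene at its height within the shaded range of 10 to 100 kb, and Suv39h1 sits at 2 domains.

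Domain density was also high in Suv39h1, at 1.47 per 10 kb. Among protein-coding genes of at least 10 kb, Setdb1 ranked 4 and Suv39h1 ranked 10 by domains per 10 kb. The genes ranked above Setdb1 were Gata2, a transcription factor gene of blood development with 3 domains in 13.1 kb, Gm40881 and Zfp640, each with 2 domains in 10.5 kb. Between Setdb1 and Suv39h1 stood Gm10323, Clec2f, Cyp4a29, Gm10573 and Zfp977, each with 2 domains. These names were taken after their values were seen. Near 10 kb a gene reaches this rank with 2 domains, so the ranks compare unlike counts.

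The domains in Setdb1 were narrow and those in Suv39h1 were of ordinary width. The median over all 28210 domains was 3.00 kb. All 6 domains of Setdb1 were below it, with a median of 0.825 kb, and 4 of the 6 were at most 0.9 kb wide, as 7.43% of all domains were. The pair of 0.6 kb domains was 4 steps of 150 bases wide, the grid on which the domains were called, and only 1.25% of all domains were narrower. The 2.55 kb domain of Suv39h1 was wider than 40.1% of all domains and the 3.15 kb domain wider than 52.4%. The 2 genes had nearly the same total in domains, 5.70 kb in Suv39h1 and 6.30 kb in Setdb1.

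**Figure D3:**
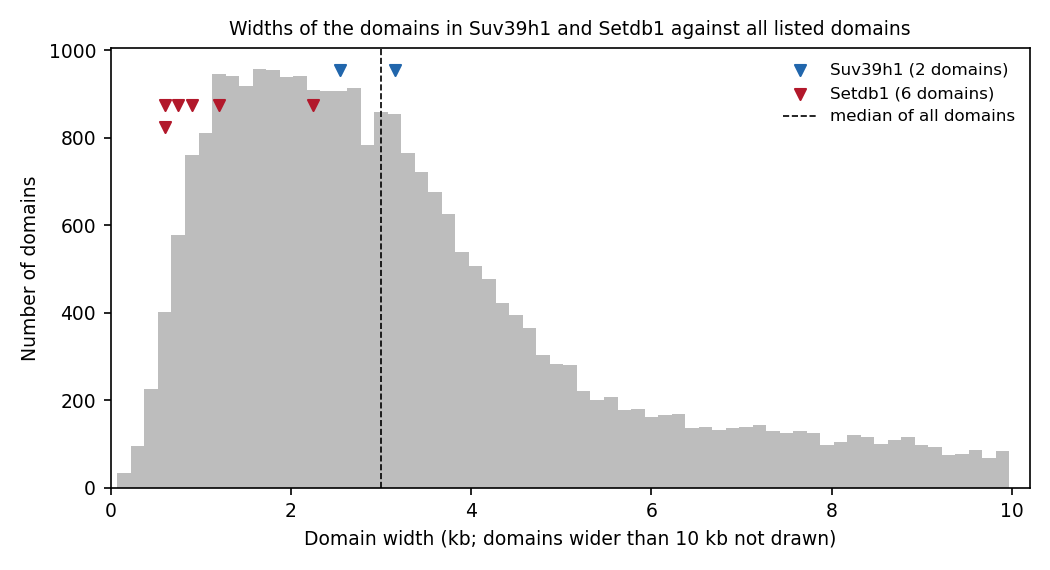
Histogram of the widths of all listed H4K20me3 domains up to 10 kb (x axis, kb; y axis, number of domains), with triangles at the widths of the domains in Suv39h1 (blue) and Setdb1 (red); the height of a triangle has no meaning. The 6 triangles of Setdb1 lie left of the dashed median of 3.00 kb, and those of Suv39h1 lie on either side of it.

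Within 100 kb of Setdb1, the upstream side held further domains and the downstream side held none. The nearest upstream domain, at chr3:95373601-95380200, was 6.60 kb wide and 16.4 kb from the gene. The 4 upstream domains in this range covered 30.8 kb. The upstream neighbour 4930558C23Rik was covered over 49.4% of its body by 1 domain. Downstream, the first domain was 189 kb away, over Lysmd1, a LysM-domain gene, and the downstream neighbour LOC115489748 had 0. The 239 kb between the outer domains contained 13 whole protein-coding genes, and its only domains were the 6 of Setdb1.

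Setdb2, the related gene on chromosome 14 (59402009 to 59440880, minus strand), is longer than Setdb1, at 38.9 kb, and had no domain. Its nearest domain was 28.7 kb downstream, at chr14:59369851-59373300, and the nearest upstream was 173 kb away. In genes within 20% of its length, 15.5% met a domain. The predicted gene Gm45935 contains the whole of Setdb2 in the annotation and had 0 domains, as did the neighbours Phf11c and Cab39l, the latter only 53 bases upstream.

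Neither gene of the G9a and GLP complex met a domain. Ehmt1 is the longest of the 8 genes, at 129 kb (chromosome 2, 24790769 to 24919643, minus strand), a length at which 37.1% of other genes within 20% met a domain. It lay in a domain-free stretch of 917 kb that held 42 whole protein-coding genes, and 0.337% of all gaps were as long. A long gap is likelier to hold a given gene than a short one, so this share overstates how unusual the stretch is. Of 591 protein-coding genes of like length without a domain, 81.0% had a domain nearer than Ehmt1 did. Its nearest domain was 156 kb downstream, at chr2:24634051-24634800, in the calcium channel gene Cacna1b. Upstream the nearest was 632 kb away, and the upstream neighbour Arrdc1 had 0.

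Ehmt2, the G9a gene on chromosome 17 (34898463 to 34914073, plus strand), was 15.6 kb long. Its nearest domain, at chr17:34780201-34792800, was 12.6 kb wide, lay 106 kb upstream and overlapped the pseudogene Tnxa. The nearest downstream was 368 kb away. The domain-free stretch around Ehmt2 was 489 kb and held 45 whole protein-coding genes, among them its neighbours Zbtb12 and Slc44a4. Of all gaps between neighbouring domains, 2.21% were as long, a share with the same limit as that for Ehmt1. Among 2333 protein-coding genes of like length, 6.39% met a domain, so an empty body was the usual state at the length of Ehmt2. Of the 2184 that did not meet one, 65.3% had a domain nearer than Ehmt2 did.

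Both H4K20 methyltransferase genes were free of domains but had one nearby. Kmt5b (chromosome 19, 3767362 to 3818303, plus strand, 50.9 kb) had a 6 kb domain 6.71 kb upstream of its start, at chr19:3754651-3760650, and the next one downstream was 159 kb away. Among 1805 protein-coding genes of like length, 18.2% met a domain. Of the 1476 that did not, 9.21% had a domain nearer than Kmt5b did. Kmt5c (chromosome 7, 4740092 to 4747514, plus strand), which encodes the enzyme most tied to H4K20me3, is the shortest of the 8 genes at 7.42 kb. It had a 2.40 kb domain 7.49 kb downstream of its end, at chr7:4755001-4757400, over Fam71e2, and the nearest upstream was 279 kb away. Among 1708 protein-coding genes of like length, 2.93% met a domain. Of the 1658 that did not, 10.7% had a domain nearer than Kmt5c did. An empty body was thus the usual state at the lengths of both Kmt5b and Kmt5c. The neighbours 1810055G02Rik and Chka of Kmt5b, and Tmem150b and Cox6b2 of Kmt5c, had 0 domains. The noncoding RNA gene Gm16066 lies inside Kmt5b and had 0 as well.

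With 10 kb added to either side of each gene, Kmt5b and Kmt5c joined Suv39h1 and Setdb1, so that 4 of the 8 met a domain, against 27.4% of all protein-coding genes. With 1 or 5 kb added, the number was still 2, against 15.5% and 20.6%. Over the 18479 protein-coding genes without a domain, the nearest was a median of 53.0 kb away, with quartiles of 18 and 134 kb. Kmt5b and Kmt5c fell below the lower quartile. Setdb2 and Suv39h2 fell between the quartiles, with Suv39h2 near the median, as did Ehmt2. Ehmt1 lay above the upper quartile.

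**Figure D4:**
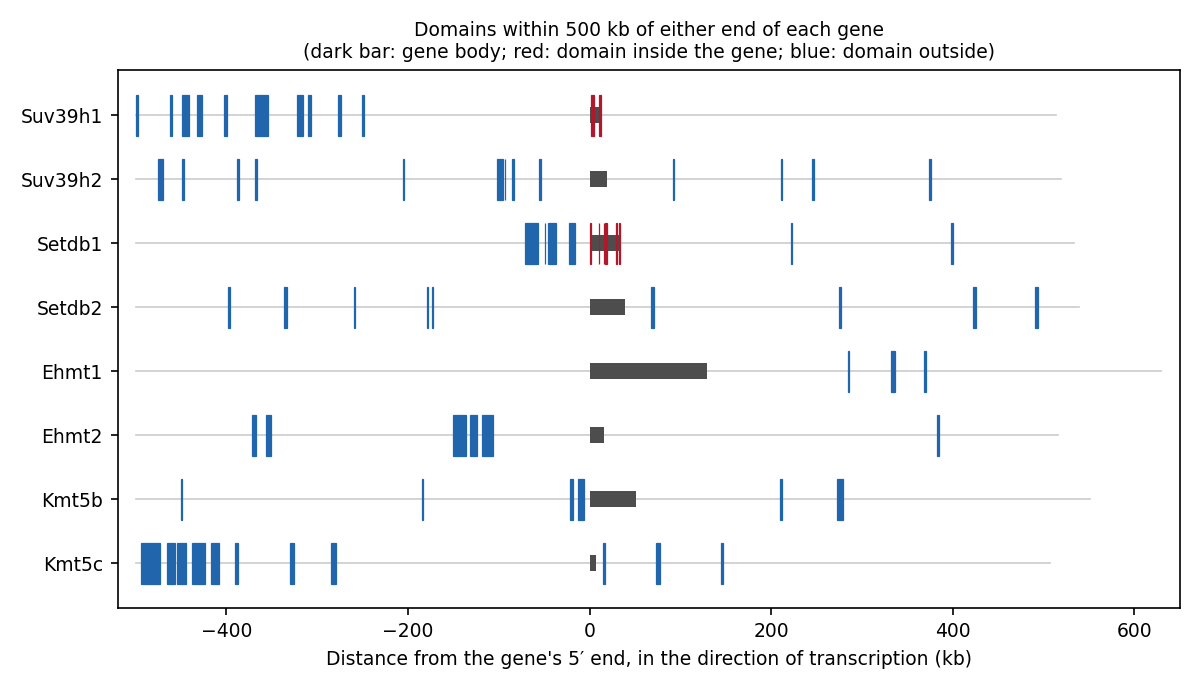
Domains within 500 kb of either end of each of the 8 genes, drawn from the gene's 5′ end in the direction of transcription (x axis, kb), with domains inside the gene in red and others in blue. Suv39h1 has its 2 domains more than 200 kb from any other, with 10 further domains upstream beyond that distance, Setdb1 has 4 domains within 100 kb upstream, and Kmt5b and Kmt5c have a domain within 10 kb of one end.

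The wider neighbourhoods differed in the same list. Within 250 kb of either side, and outside the gene, there was 1 domain at Suv39h1, 8 at Suv39h2, 5 at Setdb1, 4 at Setdb2, 3 at Ehmt1, 3 at Ehmt2, 5 at Kmt5b and 3 at Kmt5c. These covered from 0.252% of the flanks at Suv39h1 to 7.08% at Ehmt2, where 3 wide domains accounted for 35.4 kb. Within 500 kb, Suv39h2 had the most domains, 13, and Ehmt1 the fewest, 3. Suv39h1 had 10 in that range, all upstream, which covered 5.24% of its flanks.

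Some related genes also held domains, among those for cofactors, H3K9 demethylases and other SET-domain methyltransferases. Of 41 related genes, 8 met a domain (19.5%), beside 14.1% of all protein-coding genes, and none held more than 3 domains. These shares were not matched for gene length, and 37.1% of genes within 20% of the length of Ehmt1 met a domain. Among 6 genes for cofactors, 3 did. Atf7ip2, a relative of the SETDB1 cofactor gene Atf7ip, had 2 domains over 22.0% of its body, and Wiz, which encodes a zinc finger partner of G9a and GLP, had 1 over 20.7%. Cdyl2, a chromodomain gene, had 1 over 0.457%. Atf7ip itself had 0, with a domain 0.188 kb outside its body. Kmt5a, which encodes the enzyme that places the first methyl group on H4K20, had 0 and its nearest domain was 162 kb away.

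Of 11 genes for H3K9 demethylases and their relatives, Phf8, an X-linked demethylase gene, met domains, with 2 over 9.27% of its body. The other 10 had 0, and Kdm3a and Kdm4a had a domain 0.86 and 3.11 kb outside the body. Of 23 other SET-domain methyltransferase genes, 4 did. Kmt2a, the MLL1 gene, had 1 domain over 5.00% of its body and Setd2, the H3K36 methyltransferase gene, 1 over 0.697%. Smyd3 had 3 over 1.72% of its 566 kb, and Mecom 1 over 1.34% of its 558 kb. The genes for the Polycomb methyltransferases Ezh1 and Ezh2 had 0, as did Nsd1, Nsd2 and Nsd3. By domains per 10 kb of body the highest of the 41 was Atf7ip2 at 0.344, where Suv39h1 had 1.47 and Setdb1 1.78. These densities compare genes of unlike length, with Atf7ip2 at 58.1 kb. The value of Setdb1 also rests on narrow calls, as only 2 of its domains were 1 kb or wider.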

How the data were processed

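H4K20me3 ChIP-seq was made in 12 libraries, per the labels. The authors deposited a list of domains, called with the broad-mark segmentation program RSEG, per the file name. Bowtie2 2.3.4.1, SAMtools 1.1, deepTools and bedtools and the builds mm10, dm6, mm9 and GRCm38 appear, per the submitters' processing notes, without a role. Not given in the sources used here are the RSEG version, threshold and input libraries, and the depth is unknown. The deposited list has 3 columns and holds no signal, score or p-value. Of 28210 domains, 28209 have both edges on a grid of 150 bases, and neighbours are at least 750 bases apart.

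Gene bodies came from the RefSeq table of GRCm38.p6, the assembly that mm10 is built on. The list does not state its own build, and its positions were taken to be on this assembly. Of 49997 genes, 49214 on chromosomes 1 to 19 and X that begin after the first 3 Mb were used, 21523 of them protein-coding. Strand and annotated starts came from RefSeq windows of 250 bases before to 50 after a start. Exon coordinates and protein sequences were not used here. A gene met a domain when they shared at least 1 base. Distances count the bases between.

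The members and lists were chosen with earlier results of these data known. Named genes are the 8 members, their neighbours and overlapping genes, and listed related genes with a domain; others are marked, except genes at the nearest domains and related genes without a domain, which were also picked after their values were seen. Python 3.11.15, numpy 2.4.6, pandas 2.3.3 and matplotlib 3.10.9 were used, and the overlap code was tested on simulated data. The planned comparison of times was not run because the list holds no values per sample.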

Additional observations from a re-analysis of the deposited data

How the results depend on the processing

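The count of 2 of 8 genes with a domain was the same with 1 or 5 kb added on either side, with domains of 1 kb or wider only and with domains closer than 5 kb merged. It was 4 with 10 kb added, 1 without domains below the median width, and 0 when at least 50% of the body had to be covered. Setdb1, with 6 domains and 6.30 kb covered, had 2 domains and 3.45 kb with domains of 1 kb or wider, 0 domains and 0 kb at or above the median width, and 3 domains and 14.1 kb after merging, which counts the gaps as domain. Suv39h1 had 1 domain and 3.15 kb at or above the median width, and otherwise 2 domains and 5.70 kb. The share of genes with a domain was 11.9% over all annotated genes and 12.9% over protein-coding genes of 10 to 100 kb, against 14.1%. At or above the median width, the nearest domain of Suv39h2 was 95.9 kb away in place of 53.5 kb and that of Kmt5c 65.2 kb in place of 7.49 kb. For Ehmt1 it was 203 kb away in place of 156 kb, both at this width and with domains of 1 kb or wider. No paired analysis was possible because the list holds no values per sample. Depth is unknown here, so an empty gene body says only that no domain was listed there.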
